A study of Mus musculus with 3 samples.

Results

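The genes that encode the enzymes of histone acetylation and their corepressors were examined for H3K27me3 in mouse kidney. A given list of 34 genes was taken by symbol, and all 34 were found among the 21887 protein-coding genes of chromosomes 1 to 19, X and Y in the RefSeq gene table (GRCm38.p6). They comprised 9 acetyltransferases, 9 zinc-dependent deacetylases, 7 sirtuins, 2 acetyl-lysine readers and 7 corepressor subunits. H3K27me3 is trimethylated lysine 27 of histone H3, and it was mapped by chromatin immunoprecipitation and sequencing in kidney of C57BL/6 mice. The libraries were 1 from ADA-treated mice and 1 from untreated mice, beside 1 input sample. The abbreviation ADA is kept from the labels; its dose and duration, the age and sex of the mice and the number pooled per library are not stated in them. The series title further names pod-SAHH-/- mice, which were not analysed here. Each library had 1 deposited list of broad peaks, so the groups could not be compared by a test, and differences between them have no replicate check. In whole kidney, the mark in a few cells and a weaker mark in many cells cannot be told apart, and with no RNA measured the tissue was not checked against marker genes.

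Acetyltransferases add acetyl groups to lysines of histone tails, which opens chromatin, and deacetylases remove them. Of the zinc-dependent deacetylases, the class I enzymes Hdac1, Hdac2 and Hdac3 work mostly inside corepressor complexes such as NuRD, Sin3, CoREST and NCoR. Sirtuins, in contrast, consume NAD+ and couple deacetylation to metabolism. Lysine 27 of histone H3 carries either acetyl or methyl groups, so the acetyltransferases Ep300 and Crebbp, which acetylate it, and the Polycomb complex PRC2, which trimethylates it, compete for the same residue. H3K27me3 is known from repressed developmental genes, and most of the genes described here are active in many tissues.

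Peaks lay at the ends of most of these genes in both libraries, more often than at genes overall. A peak within 2 kb of either annotated gene end was present for 25 of 34 genes in ADA-treated kidney (73.5%, exact 95% interval 55.6 to 87.1%) and for 19 of 34 in untreated kidney (55.9%, 37.9 to 72.8%). Over all protein-coding genes the shares were 46.4% and 22.8%. Both lists marked 16 of the 34 genes, against 20.6% of all genes. A peak in ADA-treated kidney alone was found for 9, against 25.8% of all genes, and in untreated kidney alone for 3, Hdac10, Brd3 and Sin3b, against 2.17%. Neither list marked 6. Over all genes this class is the remainder of the shares for both lists and for each list alone. Over the gene body with its 2 kb margins the counts were 31 of 34 in ADA-treated kidney and 22 of 34 in untreated kidney, against 51.1% and 27.9% of all genes. These genes had a median length of 32121 bp, against 17169 bp for all protein-coding genes, and a longer gene offers more room for a peak in this wider window. No peak lay over Sirt4 or Sirt5 in either list. The intervals cover counting error only, and genes are not replicates of a treatment.

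The 2 lists differ in size and strength as a whole, which touches every count given here. The headers give 20602041 ChIP fragments for the ADA-treated library and 18849785 for the untreated library, and the lists hold 17612 and 8074 peaks. Fold enrichment is the authors' own value of a peak, its fragment pileup plus 1 over the background plus 1, with the same background of 3.24 fragments in both lists. The smallest pileup listed was 10 in both, so a gene without a peak lay below this level and is not shown to lack the mark. The median fold enrichment was 2.97 in ADA-treated kidney and 2.76 in untreated kidney. Fold values below serve to describe and rank the peaks within their own list, and ranks from lists of different length show no change. Peaks at the 5% q level of the caller marked an end of 23 of 34 genes in ADA-treated kidney and of 0 of 34 in untreated kidney, against 38% and 2.12% of all genes. This q is set within each list, and the highest −log10 q of the 32 untreated peaks over these genes was 1.26.

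**Figure D1:**
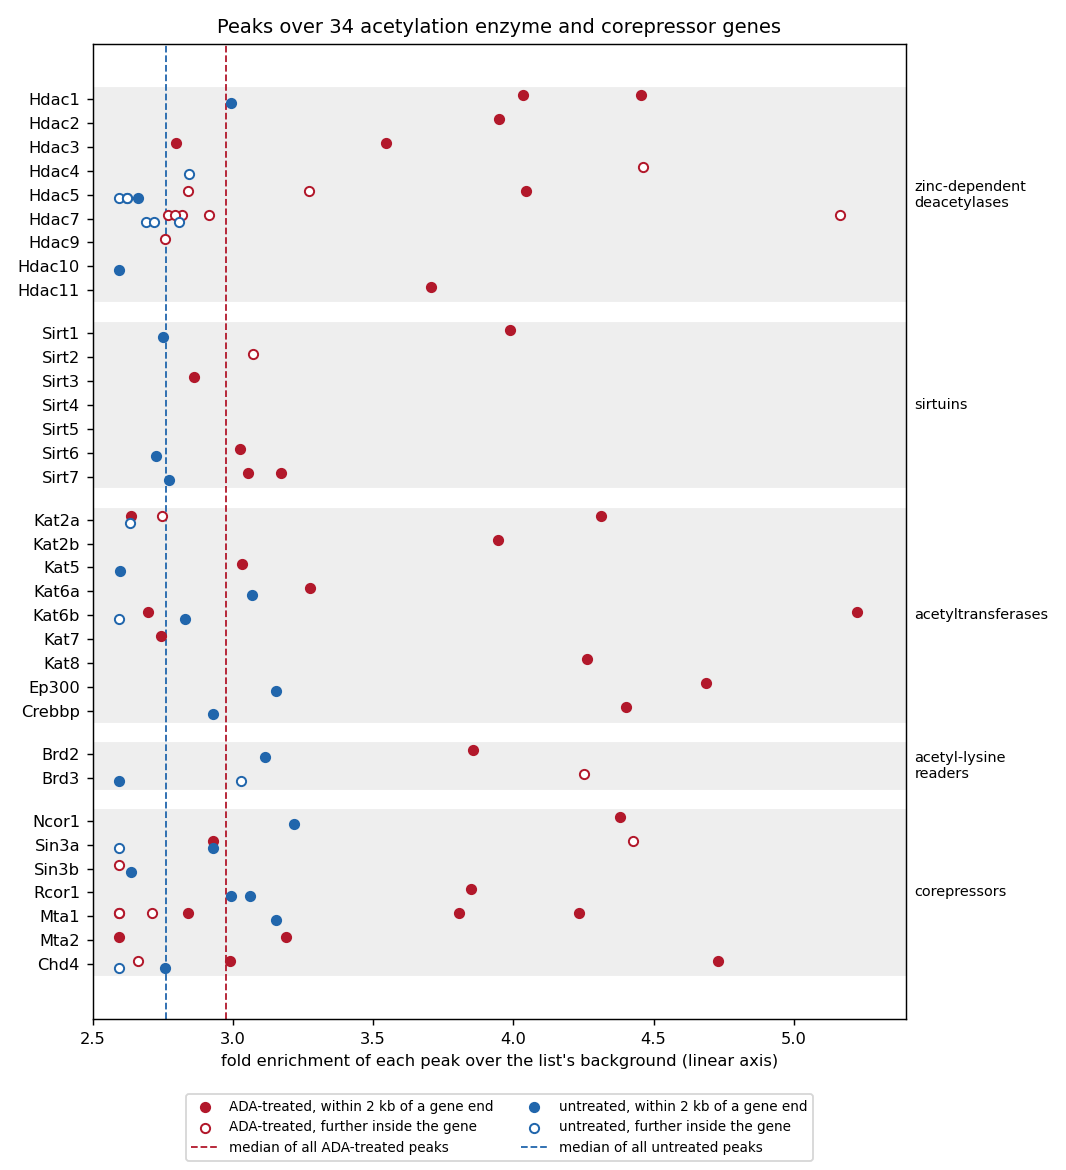
Fold enrichment of each peak over the 34 genes with 2 kb on both sides, by role, on a linear axis; red points are ADA-treated peaks, blue points untreated peaks, filled points lie within 2 kb of a gene end, and dashed lines are the medians of the whole lists. ADA-treated peaks reach 5.22 (Kat6b), untreated peaks reach 3.22 (Ncor1), and Sirt4 and Sirt5 have no point.

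By role, acetyltransferases had an ADA-treated peak at a gene end in 9 of 9 genes (interval 66.4 to 100%) and an untreated one in 5 of 9 (21.2 to 86.3%). Corepressor subunits had one in 6 of 7 in each list (42.1 to 99.6%). Zinc-dependent deacetylases had one in 5 of 9 (21.2 to 86.3%) in ADA-treated kidney and 3 of 9 (7.49 to 70.1%) in untreated kidney. Sirtuins had one in 4 of 7 (18.4 to 90.1%) and 3 of 7 (9.90 to 81.6%), and the readers in 1 of 2 (1.26 to 98.7%) and 2 of 2 (15.8 to 100%). Against these stand 46.4% (ADA-treated) and 22.8% (untreated) of all protein-coding genes. Only the intervals of acetyltransferases in ADA-treated kidney and of corepressors in untreated kidney lay wholly above these shares. The intervals of all roles overlap within each list. This overlap is no comparison of roles, and with these few genes the roles were not tested against each other. With the whole gene counted, the deacetylases had 8 of 9 and 5 of 9, against 51.1% and 27.9% of all genes. The rise came from Hdac4, Hdac7 and Hdac9, which carry their peaks inside the gene.

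**Figure D2:**
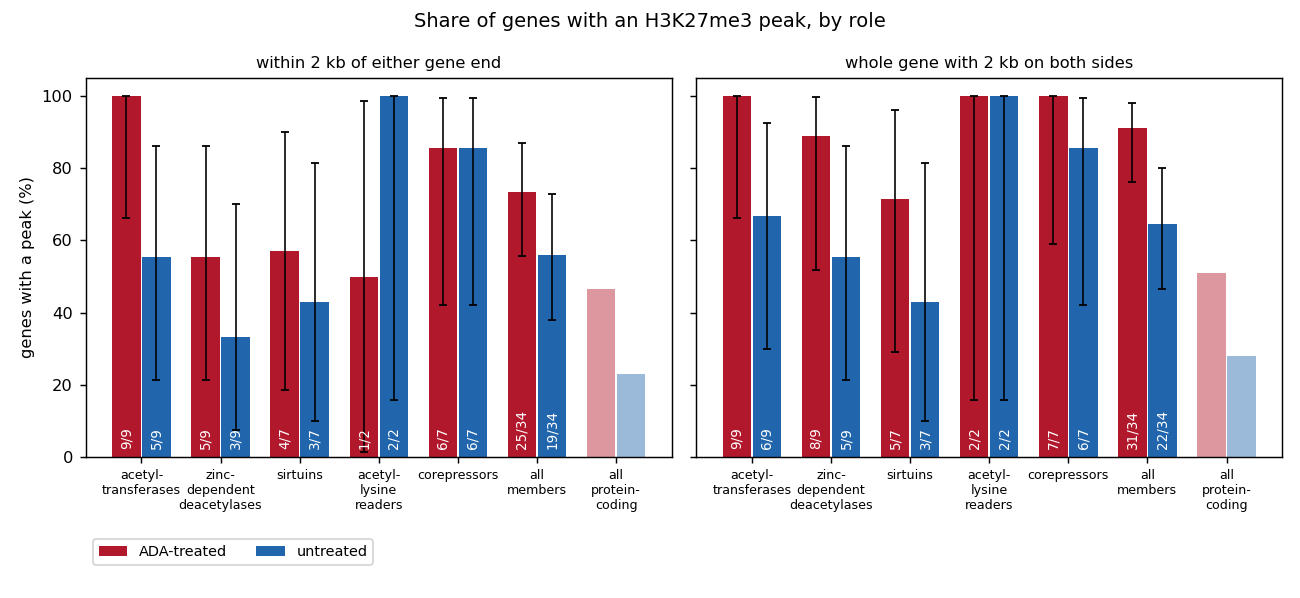
Share of genes with a peak, in percent, by role, for all 34 genes and, in paler bars, for all protein-coding genes; red is ADA-treated, blue is untreated, the numbers are genes with a peak over genes in the role, and error bars are exact 95% intervals. Acetyltransferases reach 9 of 9 in ADA-treated kidney within 2 kb of a gene end, and the intervals of the roles overlap.

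Among the acetyltransferases, Kat6b had the ADA-treated peak of highest fold enrichment of all 34 genes. Kat6b is the MORF subunit of the MOZ/MORF complex. Its peak at chromosome 14, 21499064 to 21501534 (GRCm38), had a fold enrichment of 5.22, above 99.0% of the ADA-treated peaks, and the untreated peak within it, 21499506 to 21501181, had 2.83, above 61.5% of the untreated peaks. Ep300, which acetylates H3K27, had an ADA-treated peak of 4.69 (chromosome 15, 81584883 to 81586554) and an untreated peak of 3.15 (81585605 to 81586145), above 97.0% and 90.5% of their lists. Crebbp, its close relative, had 4.40 in ADA-treated kidney and 2.93 in untreated kidney. The genes of both H3K27 acetyltransferases thus carried a peak at the 5′ end in each library. Kat6a, the MOZ enzyme, had 3.28 and 3.07 at the same place, and the untreated value lay above 86.3% of its list. Kat5, the Tip60 enzyme of the NuA4 complex, had 3.03 and 2.60, and these peaks overlapped by their edges.

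Peaks in ADA-treated kidney alone lay at the ends of Kat2a, Kat8, Kat2b and Kat7. Kat2a, the GCN5 enzyme of the SAGA complex, had a fold enrichment of 4.31 at its start. Kat8, which acetylates lysine 16 of histone H4, had 4.26, and Kat2b, the PCAF relative of Kat2a, had 3.95. Kat7, the HBO1 enzyme, had 2.74, above 25.8% of the ADA-treated peaks only, in a peak of 312 bp. The untreated list held a peak of 2.63 further inside Kat2a, at chromosome 11, 100708808 to 100709559, where the ADA-treated list had one of 2.75.

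Among the zinc-dependent deacetylases, Hdac1, Hdac2, Hdac3, Hdac5 and Hdac11 had an ADA-treated peak at a gene end, and Hdac4 and Hdac7 had peaks over inner starts. Of the class I enzymes, which are the catalytic core of most corepressor complexes, Hdac1 had ADA-treated peaks at both ends with fold enrichments of 4.46 and 4.03. The ADA-treated peak of 4.03 lay 1249 bp outside Hdac1, beside the end nearer to Marcksl1. Its untreated peak of 2.99 overlapped this peak and lay 1883 bp outside the gene. Both peaks are also within reach of Marcksl1. Hdac2 had an ADA-treated peak of 3.95 over its start, and Hdac3, the partner of NCoR, had ADA-treated peaks of 3.55 and 2.80 at its ends, each within 2 kb of a neighbouring gene. Neither Hdac2 nor Hdac3 had an untreated peak. Hdac11, the single class IV enzyme, had an ADA-treated peak of 3.71 over its start and no untreated peak. Hdac10, known for deacetylating polyamines, had an untreated peak alone, with a pileup of 10, the lowest in that list, and within reach of Mapk12.

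The class IIa enzymes, which shuttle between nucleus and cytoplasm and repress MEF2 factors, carried most of their peaks away from the gene ends. Hdac7 had 5 ADA-treated and 3 untreated peaks inside the gene and none within 2 kb of an end. The highest ADA-treated one, at chromosome 15, 97830795 to 97832341, had 5.16, above 98.9% of the list, and covered 2 annotated starts 12735 and 13007 bp into the gene. The untreated peak at the same starts had 2.81. Hdac4 had a single peak per list, 4.46 in ADA-treated kidney and 2.84 in untreated kidney, both over an annotated start 15361 bp into the gene. Hdac5 had 3 ADA-treated peaks, at 2.84 to 4.04, and 4 untreated peaks, at 2.59 to 2.66, which covered 21.0% and 17.5% of the gene with its 2 kb margins. Its highest peak in each list, 4.04 and 2.66, was the one at the gene end, 39 and 100 bp from the annotated start. Hdac9, whose table entry spans 869516 bp, had 1 weak ADA-treated peak of 2.76, 9626 bp from its first annotated start, and no untreated peak.

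The sirtuin genes with an ADA-treated peak were Sirt1, Sirt2, Sirt3, Sirt6 and Sirt7. Over the 5 sirtuins with an ADA-treated peak anywhere in the gene, the median of the highest fold enrichment was 3.07, against 4.26 for the 9 acetyltransferases, 3.997 for the 8 deacetylases and 4.23 for the 7 corepressors with a peak; for all 11190 protein-coding genes with a peak it was 3.30. In the untreated list these medians were 2.75, 2.88, 2.81 and 3.00, against 2.82 for all genes with a peak. These are medians over the genes with a peak, no test was made, and the genes of the roles overlap in value: Kat7 (2.74), Hdac9 (2.76) and Sin3b (2.60) lay below every sirtuin with an ADA-treated peak. A longer gene also offers more room for a high peak. Median gene length was 18647 bp for the sirtuins, 65869 bp for the acetyltransferases, 27593 bp for the deacetylases and 38959 bp for the corepressors. The part of gene length in these fold values was not tested. Sirt1, the nuclear sirtuin, had 3.99 in ADA-treated kidney and 2.75 in untreated kidney over its start. Sirt6, which acts on histone H3 at telomeres and in DNA repair, had 3.02 and 2.73 in peaks that overlapped by their edges. The untreated peak covered both annotated Sirt6 starts, and the ADA-treated peak began 338 bp downstream of the nearer one. Both peaks are also within reach of Ankrd24. Sirt7, the nucleolar sirtuin, had 3.17 and 2.77 at its 3′ side, beside Pcyt2. A further ADA-treated peak of 3.05 covered the Sirt7 start. The cytoplasmic tubulin deacetylase Sirt2 had a single ADA-treated peak of 3.07, 3945 bp downstream of its start. Of the mitochondrial sirtuins, Sirt3 had an ADA-treated peak of 2.86 shared with Psmd13, and Sirt4 and Sirt5 had none.

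The acetyl-lysine readers Brd2 and Brd3, BET proteins that bind acetylated histones, were covered in both libraries. Brd2 lay under the longest peaks of the group in each list, 5370 bp with a fold enrichment of 3.86 in ADA-treated kidney and 4385 bp with 3.11 in untreated kidney. They covered 36.3% and 29.6% of the gene with its margins. Brd3 had peaks of 4.25 and 3.03 over an annotated start 32259 bp into its table entry. The untreated peak that marks a gene end of Brd3 is another one, with a pileup of 10, 1961 bp outside the gene.

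Corepressor genes were marked at the 5′ end in both lists for Ncor1, Sin3a, Rcor1, Mta1 and Chd4. Ncor1, which bridges nuclear receptors to Hdac3, had 4.38 (chromosome 11, 62456954 to 62458607) in ADA-treated kidney and 3.22 (62456961 to 62457467) in untreated kidney, above 94.8% and 93.4% of the peaks of each list, and these peaks are also within reach of Pigl. Chd4, the ATPase of NuRD, had 4.73 and 2.76, with the untreated peak 666 bp downstream of the nearer start. Mta1, another NuRD subunit, had 4.23 and 3.16, and Rcor1, the CoREST scaffold, had 3.85 and 2.99 over its start. An untreated peak of 3.06 lay 170 bp beyond the far end of Rcor1, where the ADA-treated list had none. Sin3a, the scaffold of the Sin3 complex, had peaks of 2.93 in both lists beside its first start and peaks of 4.43 and 2.59 over a start 4385 bp into the gene.

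Mta2 and Sin3b were the corepressors not marked at a gene end in both lists. Mta2 had ADA-treated peaks of 3.19 at its start and 2.60, at the lowest pileup of 10, near its other end, and no untreated peak. Sin3b had an untreated peak of 2.64 over its start, with a pileup of 10.19, close to the lowest listed. In ADA-treated kidney it had a single peak at the lowest pileup of 10 some 26504 bp downstream. The peaks of the 2 lists over Sin3b therefore did not coincide. Mta1 had 6 ADA-treated peaks along the gene, which covered 15.2% of it with its margins, against 1 untreated peak covering 0.938%. Apart from the ADA-treated peaks of 4.23 at its start and 3.81 beyond its 3′ end, these were weak. Their fold enrichments were 2.60 to 2.84, from the lowest pileup of 10 to 11.03, above 0% to 37.3% of the ADA-treated list. The peak of 3.81 beyond its 3′ end, at chromosome 12, 113138997 to 113141141, is within reach of Crip2.

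**Figure D3:**
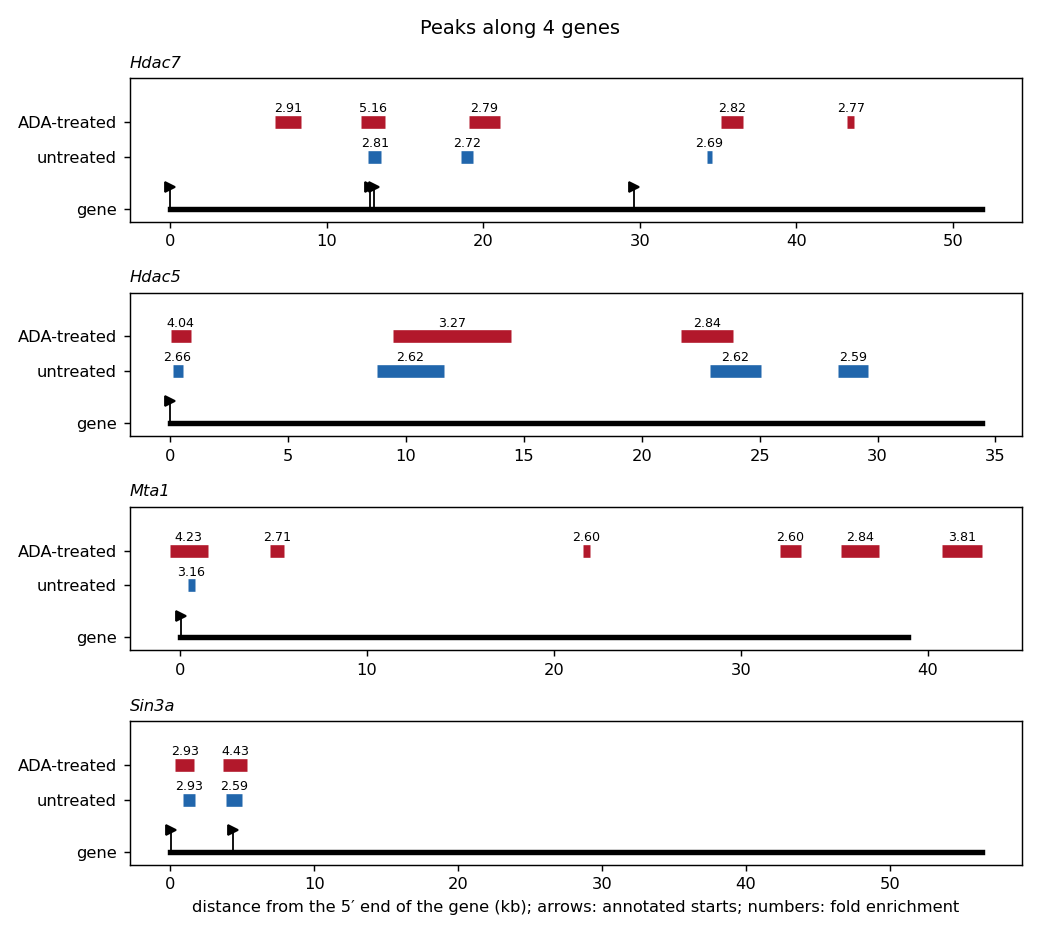
Peaks along Hdac7, Hdac5, Mta1 and Sin3a, drawn to scale in kb from the 5′ end of each gene; the black bar is the gene, arrows are annotated starts, red and blue bars are ADA-treated and untreated peaks, and the numbers are fold enrichments. The highest ADA-treated peaks of Hdac7 (5.16) and Sin3a (4.43) lie over inner starts, and Mta1 has 6 ADA-treated peaks and 1 untreated peak.

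Annotated transcription starts gave a sharper position than the gene ends. RefSeq start entries (GRCm38.p6) were matched for 30 of the 34 genes, with 45 starts in all; Hdac1, Hdac3, Hdac10 and Kat6a had none. A start lay inside a peak for 21 of 30 genes in ADA-treated kidney (70%, 50.6 to 85.3%) and for 12 of 30 in untreated kidney (40%, 22.7 to 59.4%), against 36.8% and 13.2% of the 17492 protein-coding genes with a start entry. Both lists covered a start of 10 of the 30 genes, against 11.6% of all genes. Within 2 kb of a start, a peak was present for 25 of 30 genes in ADA-treated kidney; Hdac9, Sirt2, Sirt4, Sirt5 and Sin3b had none. In the untreated list it was present for 17 of 30. Over all protein-coding genes with a start entry these shares were 44.8% and 20.9%. Of the 26 ADA-treated peaks within 2 kb of a start, 16 had their midpoint downstream of it and 10 upstream, and of the 18 untreated ones 13 and 5. The median fold enrichment was 4.02 for these 26 ADA-treated peaks and 2.77 for the 21 further away. For the untreated list it was 2.84 for the 18 and 2.62 for the 11 further away. In each list the peaks near a start thus had the higher median. Midpoints and medians by distance were taken for these genes only, so neither is shown to be particular to them.

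**Figure D4:**
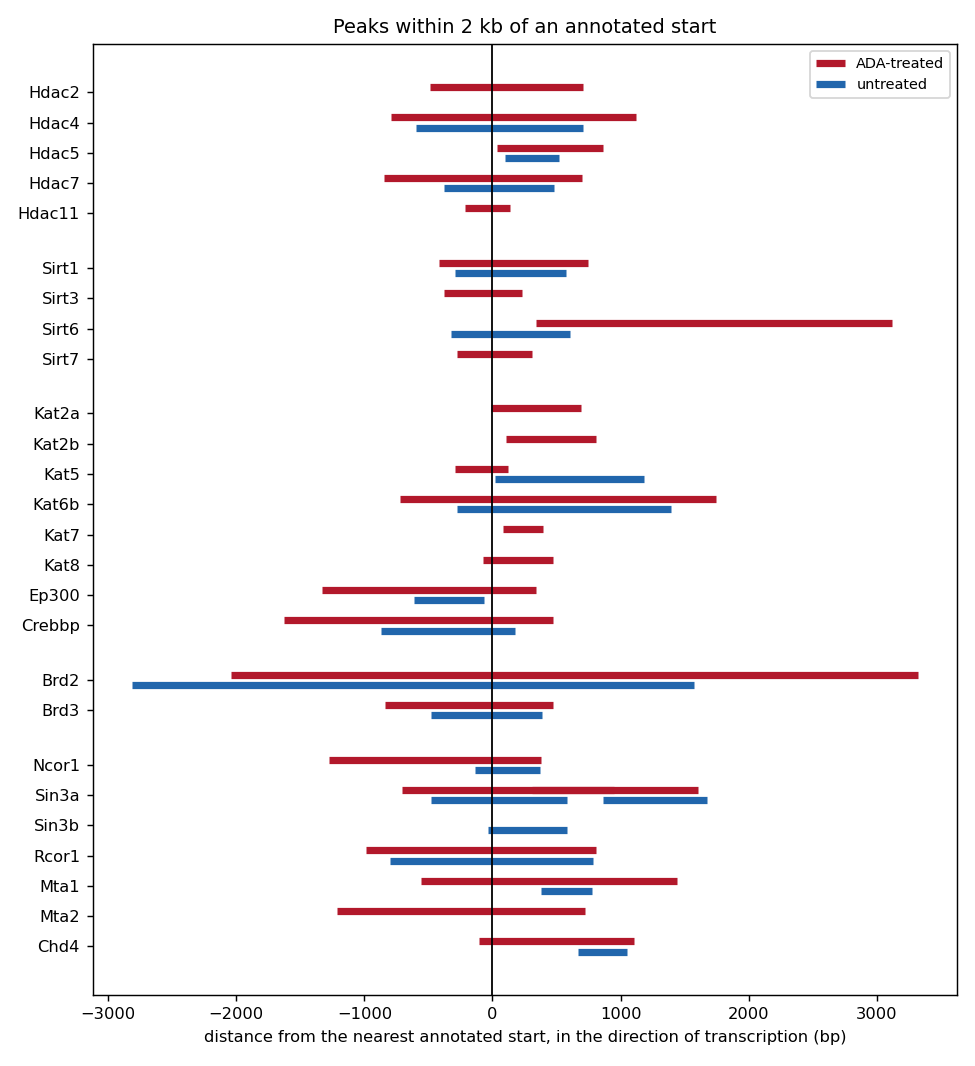
Extent of each peak within 2 kb of an annotated start, in bp from the start nearest to that peak and in the direction of transcription; red bars are ADA-treated peaks, blue bars untreated peaks below them, the black line is the start, and the 2 peaks per list of Sin3a are each drawn from their own start. Sirt6 and Sin3b are the genes whose start lies inside an untreated peak only.

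Starts inside peaks had a higher median count of CpG dinucleotides upstream than starts outside. The motif CG, which reads the same on both strands, was counted in the 250 bases upstream of each start. It occurs at least once upstream of 44 of the 45 starts of these genes and of 93.4% of the 21263 starts of protein-coding genes, with medians of 17 and 10. In ADA-treated kidney the 25 starts of these genes inside a peak had a median of 24 CpG (10 to 44) and the others a median of 11 (0 to 21). In untreated kidney the 17 starts inside a peak had a median of 25 (10 to 44) and the others a median of 12 (0 to 39), so the counts overlapped in both lists. Upstream regions are shown for starts that differ in coverage, where coverage refers to the start base and not to the whole stretch, 5′ to 3′ in lower case with each CG in capitals, from RefSeq (GRCm38.p6), ending at the base before the start.
Hdac7 inner start, start base in a peak of both lists, chr15:97831768-97832017 (- strand): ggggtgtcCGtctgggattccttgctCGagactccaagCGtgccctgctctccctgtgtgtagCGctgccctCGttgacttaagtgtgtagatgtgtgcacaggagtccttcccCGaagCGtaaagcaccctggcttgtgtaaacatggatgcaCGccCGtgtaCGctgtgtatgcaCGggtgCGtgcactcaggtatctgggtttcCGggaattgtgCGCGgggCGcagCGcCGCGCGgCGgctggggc
Hdac7 first start, start base in no peak of either list, chr15:97844503-97844752 (- strand): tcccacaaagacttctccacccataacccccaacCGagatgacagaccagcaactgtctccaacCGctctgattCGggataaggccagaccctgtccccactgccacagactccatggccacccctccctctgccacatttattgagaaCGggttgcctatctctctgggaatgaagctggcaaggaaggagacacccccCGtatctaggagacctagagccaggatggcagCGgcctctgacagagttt
Crebbp, start base in a peak of both lists, chr16:4213405-4213654 (- strand): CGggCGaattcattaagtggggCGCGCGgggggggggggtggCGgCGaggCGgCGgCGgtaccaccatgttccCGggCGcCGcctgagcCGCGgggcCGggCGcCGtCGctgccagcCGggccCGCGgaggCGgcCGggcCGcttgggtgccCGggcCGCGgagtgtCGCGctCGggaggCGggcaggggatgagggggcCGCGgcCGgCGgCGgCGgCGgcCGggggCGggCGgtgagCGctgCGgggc
Ep300, start base in an ADA-treated peak and in no untreated one, chr15:81585964-81586213 (+ strand): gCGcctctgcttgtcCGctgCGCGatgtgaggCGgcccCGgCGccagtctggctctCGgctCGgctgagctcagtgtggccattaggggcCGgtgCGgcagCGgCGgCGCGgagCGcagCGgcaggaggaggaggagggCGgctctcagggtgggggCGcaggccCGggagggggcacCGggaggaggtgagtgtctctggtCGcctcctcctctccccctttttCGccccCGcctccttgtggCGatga
Sin3b, start base in an untreated peak and in no ADA-treated one, chr8:72723020-72723269 (+ strand): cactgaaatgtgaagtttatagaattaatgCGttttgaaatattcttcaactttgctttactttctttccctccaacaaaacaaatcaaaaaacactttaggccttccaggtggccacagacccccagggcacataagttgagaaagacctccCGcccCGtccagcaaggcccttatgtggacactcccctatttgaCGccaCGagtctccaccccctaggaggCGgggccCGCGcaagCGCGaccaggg
Hdac9 first start, start base in no peak of either list, chr12:34917096-34917345 (- strand): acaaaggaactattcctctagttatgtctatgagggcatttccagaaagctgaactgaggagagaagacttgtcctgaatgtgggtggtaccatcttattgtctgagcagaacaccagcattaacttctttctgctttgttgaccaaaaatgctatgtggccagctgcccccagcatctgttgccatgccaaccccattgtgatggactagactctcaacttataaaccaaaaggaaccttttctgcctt
Of the 250 bases shown, ADA-treated peaks covered 250 at the inner Hdac7 start, Crebbp and Ep300 and 0 at Sin3b, whereas untreated peaks covered 106 at the inner Hdac7 start, 250 at Crebbp, 182 at Ep300 and 38 at Sin3b. At the first starts of Hdac7 and Hdac9 they covered 0 in both lists. The inner Hdac7 start has 21 CpG, the first Hdac7 start 6, Crebbp 44, Ep300 25, Sin3b 10 and the first Hdac9 start 0. The 2 Hdac7 regions belong to the same gene and the same library, and they differ both in CpG count and in coverage.

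Among the 45 starts, coverage was more frequent at high than at low CpG counts, as it was over all starts. With 25 or more CpG, 12 of 12 starts lay inside an ADA-treated peak and 9 of 12 inside an untreated one, against 85.5% and 38.1% of all starts with that many. With 20 to 24, the counts were 5 of 7 and 3 of 7, against 70.7% and 23.7%. With 15 to 19 they were 4 of 5 and 2 of 5, against 56.1% and 17.4%, and with 10 to 14 they were 4 of 12 and 3 of 12, against 38.8% and 10.2%. With 5 to 9 they were 0 of 6 in each list, against 16.1% and 4.10%, and with 0 to 4 they were 0 of 3 in each list, against 2.54% and 0.893%. Starts of the same gene can share a peak, as the 3 starts of Brd2 do, so they are not independent. In the ADA-treated list, 7 of the 12 genes with several starts had some inside a peak and some outside, and in 6 of these 7 the starts inside had more CpG than those outside. These were Hdac7, Kat5, Kat8, Ncor1, Sin3a and Chd4, and the exception was Sirt3. Such splits within a gene were not counted over all genes. The share of starts inside a peak therefore moved with base composition across the genome in both libraries, and the part of CpG content in the counts of these genes was not tested.

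**Figure D5:**
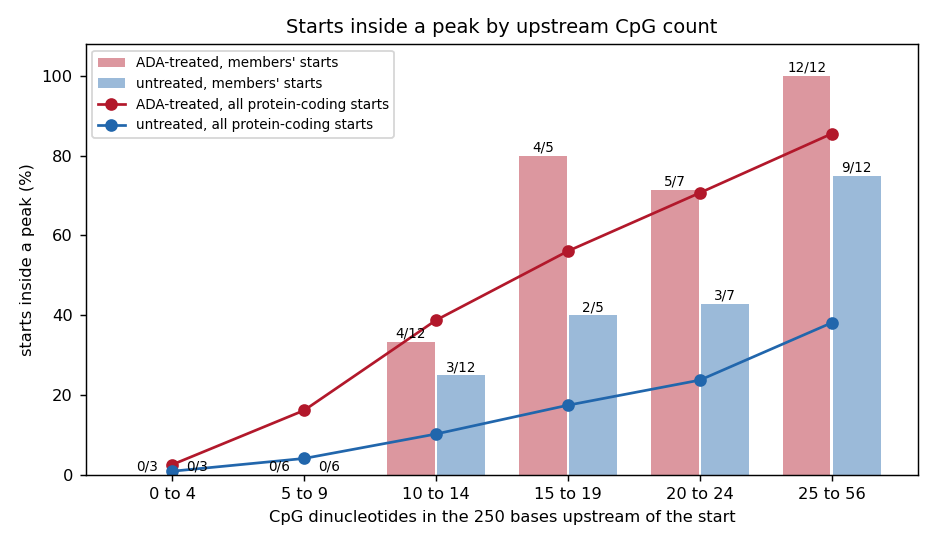
Percent of annotated starts inside a peak, by the number of CpG in the 250 bases upstream; bars are the starts of the 34 genes with their counts, lines are all protein-coding starts, red is ADA-treated and blue is untreated. Coverage of all starts runs from 2.54% to 85.5% in ADA-treated kidney and from 0.893% to 38.1% in untreated kidney.

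The genes marked at an end in both libraries had overlapping peaks, about as often as genes overall under the stricter rule. The peaks of the 2 lists overlapped by at least 1 bp for 16 of the 16 genes marked in both, against 91.5% of the 4506 protein-coding genes marked in both. With at least 50% of the shorter peak overlapped, the count was 14 of 16 (87.5%), against 85.0% of all. Of the 52 ADA-treated peaks over these genes, 25 (48.1%) were overlapped by an untreated peak, against 27% of the whole ADA-treated list. Of the 32 untreated peaks, 24 (75%) were overlapped by an ADA-treated one, against 59.1% of the whole untreated list. The whole lists also hold peaks away from genes, and the peaks over these genes were longer. Their median length was 1205.5 bp against 791 bp (ADA-treated) and 870.5 bp against 718 bp (untreated). A longer peak offers more room for an overlap, and the part of length in these shares was not tested. Not every peak is particular to the gene it was counted for. Of 34 ADA-treated peaks at gene ends, 14 also lay within 2 kb of another protein-coding gene, and of 20 untreated ones, 7 did. With such shared peaks set aside, 18 of 34 genes had an ADA-treated peak at an end and 12 of 34 an untreated one, against 32.6% and 15.7% of all protein-coding genes under the same rule. The genes marked by shared peaks alone were Brd2, Hdac3, Kat2a, Ncor1, Sirt3, Sirt6 and Sirt7 in ADA-treated kidney, and Brd2, Brd3, Hdac1, Hdac10, Ncor1, Sirt6 and Sirt7 in untreated kidney.

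Other subunits of the same complexes were also marked more often than genes overall. Of 57 further subunits of acetyltransferase and deacetylase complexes, 50 (87.7%, 76.3 to 94.9%) had an ADA-treated peak at a gene end and 30 (52.6%, 39.0 to 66.0%) an untreated one, against 46.4% and 22.8% of all genes. These 30 were marked in both lists, 20 in ADA-treated kidney alone and 0 in untreated kidney alone, which allows a share of up to 6.27% (exact interval). Of those marked in both, the 4 with the smallest caller p were Brpf3, a scaffold of the MOZ/MORF complex, Ncoa2, a nuclear receptor coactivator, Gatad2a, a NuRD subunit, and Phf20, a subunit of the Kat8 complex. Their fold enrichments were 5.70, 5.71, 5.46 and 5.35 in ADA-treated kidney and 2.72, 2.87, 2.90 and 4.36 in untreated kidney. Of those in ADA-treated kidney alone, Ing5 had 5.57, Kansl1 5.30, Msl1 4.98 and Tada2a 4.03, and these encode subunits of the Kat6, Kat8 and Kat2 complexes.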

How the data were processed

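H3K27me3 ChIP-seq peaks of 1 ADA-treated and 1 untreated kidney library were analysed, grouped by the treatment and antibody labels. The authors called broad peaks with MACS 2.1.2 at p 0.001, per library against its own input, keeping duplicates and without a local background, per the file headers. Input totals there are 22100010 fragments (ADA-treated) and 23891586 (untreated). No alignment tool was given in the sources used here; CASAVA 1.4 and mm9 appear in the submitters' processing notes. Of the peak midpoints, 45.0% (ADA-treated) and 43.8% (untreated) lay within 1 kb of a GRCm38 gene end, against 8.40% and 7.76% with gene positions shifted by -10 kb, so coordinates are given as GRCm38, 1-based. The deposited pileup is a fragment signal averaged over the region, and the deposited fold enrichment is a ratio to 1 constant background. Caller values of −log10 p and −log10 q were used as deposited, although the headers say that q was not calculated.

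A gene was marked when a peak overlapped the 2 kb around either annotated end. Overlaps were computed with Python 3.11.15, numpy 2.4.6 and pandas 2.3.3, exact intervals with scipy 1.17.1 and figures with matplotlib 3.10.9, and the gene-end calls were tested on simulated data. All 34 genes are named, and of the further subunits the 4 with the smallest caller p per class. The members and lists were chosen with earlier results of these data known; starts, CpG counts and the upstream regions shown were added after the peaks had been seen. Alternatives were windows of 5 kb, 0 bp and the whole gene, a pileup of at least 12, the 5% q level, lists of equal length, and overlap of 50% of the shorter peak.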

Additional observations from a re-analysis of the deposited data

How the results depend on the processing

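The number of genes marked in ADA-treated kidney stayed within 1.5 times of the value in the report in all 6 recounts, and the number marked in untreated kidney did not. Out of 97 recounts, 62 stayed within 1.5 times and 35 did not. Counts of genes marked in neither list are given below without a share over all genes. With the whole gene counted, deacetylases had 8 ADA-treated and 5 untreated marked genes and readers 2 ADA-treated ones. Marked in untreated kidney alone was then 1 gene, against 2.4% of all genes, and 2 were marked in neither. With a gene end lying in the peak itself, the untreated list marked 8 genes and both lists 6, against 11% and 9.12% of all protein-coding genes, and 15 were marked in neither. Sirtuins then had 2 of 7 genes marked in the ADA-treated list, against 31% of all genes. The untreated list had 1 deacetylase, 2 acetyltransferases, 0 readers and 3 corepressors. At a pileup of at least 12, the untreated list marked 5 genes and both lists 5, against 4.57% and 3.84% of all genes. In ADA-treated kidney alone 15 were marked and in untreated kidney alone 0, against 27% and 0.731% of all genes, and 14 in neither. By role the untreated list had 0 deacetylases, 0 sirtuins, 2 acetyltransferases, 1 reader and 2 corepressors. The ADA-treated list had 2 of 7 sirtuins, against 30.9% of all genes. At the 5% q level, the untreated list marked 0 of 34 genes, hence 0 in each role, 0 in both lists and 0 in untreated kidney alone. Over all genes these shares were 2.12% in the untreated list, 1.99% in both and 0.137% in untreated kidney alone. In ADA-treated kidney alone 23 were marked, against 36.1% of all genes, and 11 in neither. With lists of equal length, 21 of 34 genes were marked in ADA-treated kidney and 19 of 34 in untreated kidney, against 32.2% and 22.8% of all genes. In ADA-treated kidney alone 7 were marked, against 9 with the full lists and 15.6% of all genes. In untreated kidney alone 5 were marked, against 3 with the full lists and 6.18% of all genes. Acetyltransferases then had 7 of 9 in the ADA-treated list and 5 of 9 in the untreated list. Windows of 5 kb moved no count beyond 1.5 times. No paired analysis was possible because each group has 1 library. A weak mark below a pileup of 10 is not seen at this depth, and with no replicate the spread between libraries is unknown.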
